A study of Homo sapiens with 9 samples.

Results

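CNTN1, SLITRK6, CPLX2, ANXA13, ALDH7A1 and CDCA7L are 6 protein-coding genes of the 58735 genes in the deposited count table. They were chosen by their measured counts, which were higher in A549 libraries overexpressing LINC00996 than in control libraries or in libraries overexpressing AP001189.3. The higher level in the LINC00996 libraries is therefore the rule that picked them and is described below without a test. The contrast of AP001189.3 with control was not itself part of that rule and was tested. The rule used the counts of both groups, so a low level in either could help a gene in. That test is therefore not independent of the choice.

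A549 is an established human lung adenocarcinoma cell line. RNA selected on poly-T beads was sequenced from A549 cells transfected by jetPRIME reagent with a control plasmid, with a LINC00996 plasmid or with an AP001189.3 plasmid, in 3 libraries per group and 9 libraries in all. LINC00996 and AP001189.3 are long non-coding (lnc) RNAs, and the control plasmid, which the sample names abbreviate as PC3, is not the prostate cell line of that name. The time between transfection and RNA extraction is not given in the sources used here, nor is whether the transfected cells were selected. Every group analysed here had received a plasmid. The control labels name the plasmids PC3.1, PC3.2 and PC3.3, 1 for each library, while the study's text names PC3.1, and whether these are different plasmids is not stated. The study describes extractions in triplicate. Its general methods name fewer biological replicates per condition than the 3 libraries per group here. They do not say whether the libraries of a group came from separate cultures, so p-values measure the spread between these libraries, which may be technical.

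Each library held between 15272450 and 18125447 counts. LINC00996 had 9, 8 and 4 counts in control replicates 1, 2 and 3, 5239, 4373 and 5952 in the LINC00996 libraries and 8, 7 and 8 in the AP001189.3 libraries. AP001189.3 had 1660, 1931 and 2378 counts in its own libraries and at most 2 in any other. Of 16 markers of A549 and lung epithelium, 11 were tested, led by KRT8, a keratin of simple epithelia, at 3994 ± 109 CPM in the control libraries (SD, n = 3), while the alveolar marker SFTPC had at most 6 counts and the club cell marker SCGB1A1 had 0. Of these 11, 2 rose and 4 fell between LINC00996 and control by edgeR, or 54.5% called against 22.3% of all 16097 genes tested (10.7% higher and 11.6% lower). The junction protein gene CDH1 fell by 0.89 ± 0.09, the secreted products TFF1 and MUC5AC by 1.00 ± 0.11 and 0.56 ± 0.09 and KRT19 by 0.40 ± 0.11, while AKR1B10 rose by 0.93 ± 0.08 (log2, SE, edgeR adjusted p = 2.92e-05, 9.75e-05, 0.00121, 0.0256 and 9.00e-06), the KRT19 call being lost in 5 of 13 alternatives. These moves ran beside the higher levels of the 6 genes, and their part in them was not tested. LINC00996 replicate 1 stood apart from the rest. The chi-square per gene between it and the other LINC00996 libraries was 22.4 and 33.3, against 2.27 to 7.32 for the other 7 pairs of replicates, and the level of a gene relative to its mean over all libraries rose with the GC content of its transcript in this library (Spearman rho = 0.44 over 15634 genes, which share the library). In LINC00996 replicates 2 and 3 the same rho was -0.25 and -0.44. It lay between -0.29 and 0.00 in the control libraries and between 0.22 and 0.37 in the AP001189.3 libraries. The differences of the 6 genes from control and the counts of the gene lists with LINC00996 are therefore also given without replicate 1 and with an offset for GC content.

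Most of the 6 genes are best known outside the lung. CNTN1 encodes contactin-1, an immunoglobulin-domain adhesion molecule tied to the membrane by a lipid anchor, which neurons use at axon contacts and which joins CNTNAP1 at the edges of the nodes of Ranvier. SLITRK6 is a leucine-rich repeat (LRR) adhesion protein of the inner ear and retina, and CPLX2 is a complexin, which clamps and promotes vesicle fusion by binding assembled SNARE complexes. ANXA13 is an annexin, a protein that binds membranes in the presence of calcium, and is known from the intestine. ALDH7A1 (antiquitin) is the aldehyde dehydrogenase of lysine breakdown, and CDCA7L is a nuclear protein related to CDCA7 that binds MYC.

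The 6 genes lie on 5 chromosomes. In GRCh38 coordinates as deposited, CNTN1 (ENSG00000018236) spans chr12:40692442-41072418 on the plus strand, SLITRK6 (ENSG00000184564) chr13:85792787-85806683 on the minus strand and CPLX2 (ENSG00000145920) chr5:175796310-175884020 on the plus strand. ALDH7A1 (ENSG00000164904) lies at chr5:126531200-126595418 and CDCA7L (ENSG00000164649) at chr7:21900900-21946084, both on the minus strand, as is ANXA13 (ENSG00000104537). The values below count reads over the exons of these genes. CPLX2 and ALDH7A1, the pair on chromosome 5, stand far apart there.

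The start regions of the genes are shown because these genes were picked for being higher in the same libraries, so that their letters can be read side by side. RefSeq promoters (GRCh38.p14, 250 bases before and 50 after the start, 300 bases each) were matched by symbol for 5 of the 6 genes, with 2 starts for CNTN1. They are printed 5′ to 3′ on the strand of the gene, in lower case, with motif matches in capitals.
CNTN1, first start, chr12:40827934-40828233: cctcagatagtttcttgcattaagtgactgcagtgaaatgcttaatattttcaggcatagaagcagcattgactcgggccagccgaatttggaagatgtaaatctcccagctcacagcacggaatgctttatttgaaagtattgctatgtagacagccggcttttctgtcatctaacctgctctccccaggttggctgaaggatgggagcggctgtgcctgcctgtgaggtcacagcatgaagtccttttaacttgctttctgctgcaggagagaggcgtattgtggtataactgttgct
SLITRK6, chr13:85799370-85799669: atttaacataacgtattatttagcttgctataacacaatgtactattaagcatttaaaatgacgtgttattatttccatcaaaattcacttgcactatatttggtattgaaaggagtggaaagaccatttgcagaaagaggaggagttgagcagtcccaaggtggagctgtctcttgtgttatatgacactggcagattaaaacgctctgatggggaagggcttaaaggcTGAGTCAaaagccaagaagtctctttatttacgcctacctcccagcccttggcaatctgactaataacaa
CPLX2, chr5:175796283-175796582: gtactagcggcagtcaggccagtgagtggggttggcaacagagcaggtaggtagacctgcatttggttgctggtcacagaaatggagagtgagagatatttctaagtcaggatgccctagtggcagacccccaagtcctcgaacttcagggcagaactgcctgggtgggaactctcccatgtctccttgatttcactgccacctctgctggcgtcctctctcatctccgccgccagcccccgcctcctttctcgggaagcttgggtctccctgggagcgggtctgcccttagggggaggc
ALDH7A1, chr5:126595170-126595469: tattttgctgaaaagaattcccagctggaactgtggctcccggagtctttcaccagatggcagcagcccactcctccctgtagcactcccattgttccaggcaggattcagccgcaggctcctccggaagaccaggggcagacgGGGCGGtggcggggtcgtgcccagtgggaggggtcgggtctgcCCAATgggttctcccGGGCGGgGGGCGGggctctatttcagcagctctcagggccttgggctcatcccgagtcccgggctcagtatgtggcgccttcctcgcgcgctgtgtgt
CDCA7L, chr7:21945850-21946149: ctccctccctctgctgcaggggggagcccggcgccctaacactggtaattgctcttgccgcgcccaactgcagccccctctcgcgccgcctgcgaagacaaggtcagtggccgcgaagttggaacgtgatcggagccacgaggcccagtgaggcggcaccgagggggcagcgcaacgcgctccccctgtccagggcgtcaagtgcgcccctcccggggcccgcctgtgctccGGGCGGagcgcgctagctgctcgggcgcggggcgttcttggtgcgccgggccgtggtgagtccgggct

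The capitals mark matches, on either strand, to 8 motifs searched for. No motif was held by all of the promoters. The GC box letters GGGCGG, present in 45.0% of 35116 promoters of this length, was found 3 times in the ALDH7A1 promoter and once in that of CDCA7L, beginning 18 bases before the CDCA7L start. TGANTCA, which the AP-1 family is known to bind and which 7.71% of promoters hold, began 20 bases before the SLITRK6 start. CCAAT, in 34.6% of promoters, began 63 bases before the ALDH7A1 start and 103 bases before the second start of CNTN1 (promoter chr12:40908107-40908406). The windows of CPLX2 and of the first CNTN1 start held none of the 8 motifs. The other motifs had no match. The TATA box letters TATAAA are in 11.5% of all promoters, the E-box CACGTG in 7.26% and the interferon-stimulated response element core in 3.57%. The cAMP response element TGACGTCA is in 1.85%, and TTCAGCACC, one arm of the RE1 element, in 0.376%. The promoters also differed in CG dinucleotides, with 34 in CDCA7L, 17 in ALDH7A1, 8 in CPLX2, 6 and 2 at the first and second start of CNTN1 and 4 in SLITRK6, against a median of 14 over all promoters. Each RefSeq start lies inside the span that the deposited table gives for its gene, not at the outer end. For CPLX2, ALDH7A1 and CDCA7L these starts are at 175796533, 126595219 and 21945899. Part or all of each window before the start is therefore inside the gene by the deposited coordinates. The windows need not hold the start that A549 uses.

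CNTN1 was present at high levels without LINC00996. Its level was 328, 354 and 349 CPM (counts scaled to the library total after TMM normalization) in control replicates 1, 2 and 3, and 564, 765 and 743 CPM in the LINC00996 libraries. It was 296, 322 and 297 CPM in the AP001189.3 libraries. Each LINC00996 library was above all 6 others, the lowest of them 1.59-fold above the highest control. The mean of 691 ± 110 CPM (SD, n = 3) lay 1.01 ± 0.11 above control on the log2 scale (SE, edgeR fit) and 1.18 ± 0.12 above AP001189.3. LINC00996 replicate 1 was the low library of its group. Without it the difference from control was 1.13 ± 0.06. In bulk RNA, more RNA per cell and more cells that hold the RNA cannot be told apart, here and for every gene below.

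SLITRK6 had fewer counts than CNTN1 and the same order among the groups' means. It measured 14.1, 18.4 and 14.6 CPM in the control libraries, 28.1, 39.2 and 39.5 CPM in the LINC00996 libraries and 15.5, 14.5 and 14.7 CPM in the AP001189.3 libraries. The control and AP001189.3 libraries overlapped, and the LINC00996 libraries were above both. The difference was 1.18 ± 0.16 from control and 1.25 ± 0.15 from AP001189.3 (log2, SE). Replicate 1 was again the low LINC00996 library, and the difference from control without it was 1.33 ± 0.11.

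CPLX2 showed the opposite order among the LINC00996 libraries. In control replicates 1, 2 and 3 it measured 367, 357 and 364 CPM, in the LINC00996 libraries 1056, 784 and 748 CPM and in the AP001189.3 libraries 416, 414 and 405 CPM. The 3 groups did not overlap. LINC00996 replicate 1, low for CNTN1 and SLITRK6, was the high library here. The difference was 1.25 ± 0.12 from control and 1.06 ± 0.12 from AP001189.3 (log2, SE), and without replicate 1 it was 1.08 ± 0.06 and 0.90 ± 0.05.

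ANXA13, at chr8:123680794-123737407, showed the smallest difference from control of the 6 genes. It measured 16.2, 17.6 and 14.9 CPM in the control libraries, 23.6, 24.7 and 22.8 CPM in the LINC00996 libraries and 12, 11.6 and 11.4 CPM in the AP001189.3 libraries. The 3 groups did not overlap and were ordered LINC00996, control, AP001189.3. The level with LINC00996 was 0.54 ± 0.12 above control and 1.02 ± 0.11 above AP001189.3 (log2, SE), and without replicate 1 it was 0.55 ± 0.11 above control.

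ALDH7A1 and CDCA7L were even across the LINC00996 replicates. ALDH7A1 measured 37.8, 35.7 and 38.1 CPM in the control libraries, 79.6, 77.2 and 77.0 CPM with LINC00996 and 46.1, 42.9 and 42.9 CPM with AP001189.3. All 3 groups of ALDH7A1 values were separate, with AP001189.3 between the others. Its differences were 1.07 ± 0.09 from control and 0.82 ± 0.09 from AP001189.3 (log2, SE), and 1.05 ± 0.08 from control without replicate 1. CDCA7L, the gene with the fewest counts at 107 to 347 counts per library, measured 7.24, 6.98 and 8.41 CPM in control, 19.0, 18 and 16.7 CPM with LINC00996 and 6.69, 7.23 and 6.49 CPM with AP001189.3. Control and AP001189.3 overlapped for CDCA7L, and the LINC00996 libraries lay 1.24 ± 0.14 above control (1.20 ± 0.14 without replicate 1) and 1.39 ± 0.13 above AP001189.3. For all 6 genes each LINC00996 library was above the 6 other libraries, which held for 12.2% of the 15641 genes tested in all 3 comparisons. The rule picked them for this, so nothing is read from that count.

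**Figure D1:**
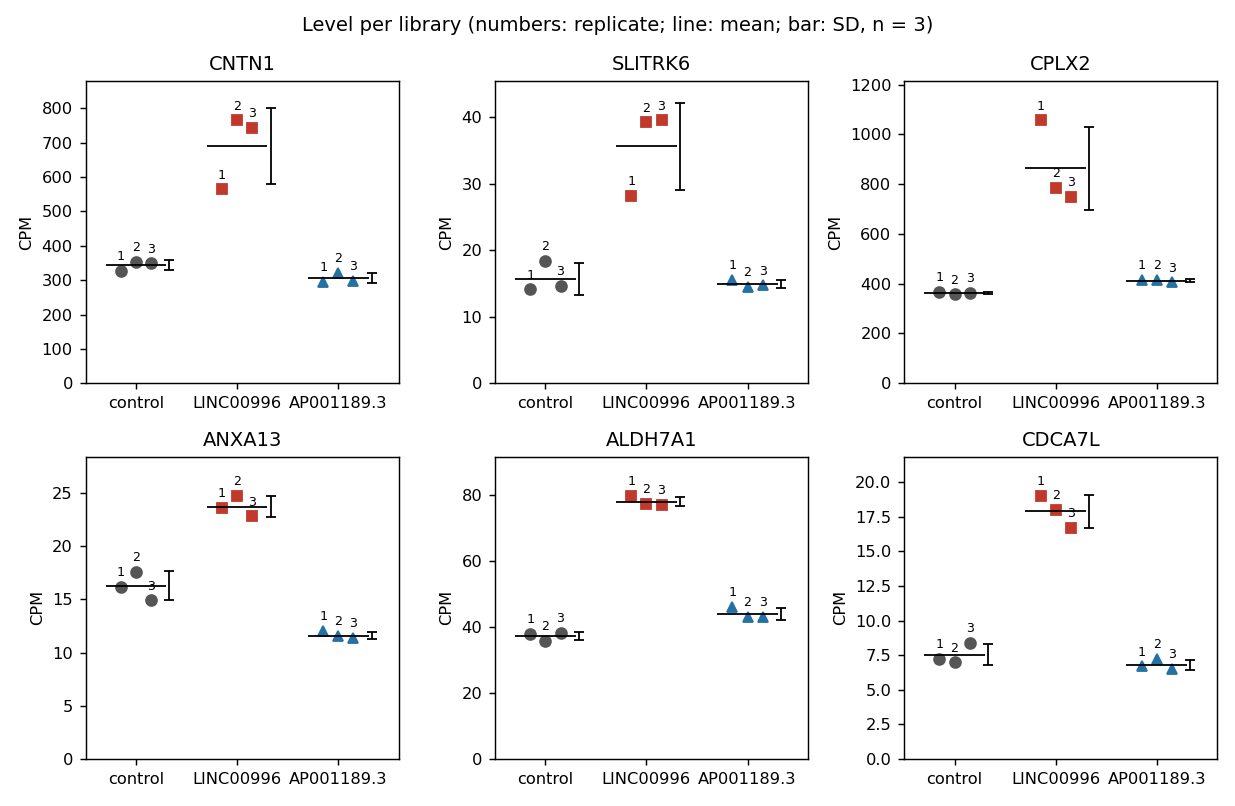
Level of each of the 6 genes in every library, in CPM on linear axes that start at 0, by group (control, LINC00996, AP001189.3). Points are libraries with their replicate number, the line is the group mean and the bar beside it the SD (n = 3). LINC00996 replicate 1 is the lowest of its group for CNTN1 (564 CPM) and SLITRK6 (28.1 CPM) and the highest for CPLX2 (1056 CPM).

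LINC00996 replicate 1 differed from replicates 2 and 3 along GC content. The longest transcript of CNTN1 is 38.3% GC, that of SLITRK6 37.1% and that of CPLX2 58.2%. Replicate 1 differed from the mean of replicates 2 and 3 by -0.42 for CNTN1, -0.49 for SLITRK6 and 0.46 for CPLX2 on the log2 CPM scale. The median of all tested genes within 2 GC points was -0.34, -0.37 and 0.32 at these positions. ANXA13, ALDH7A1 and CDCA7L, at 45.2%, 45.9% and 47.6% GC, differed by -0.01, 0.04 and 0.13, where the medians of genes of like GC content were -0.13, -0.10 and -0.04. A GC offset per library, added after the data were seen, narrowed the error and hardly moved the values. The differences between LINC00996 and control became 1.04 ± 0.06 for CNTN1, 1.21 ± 0.10 for SLITRK6, 1.21 ± 0.06 for CPLX2, 0.57 ± 0.10 for ANXA13, 1.09 ± 0.07 for ALDH7A1 and 1.26 ± 0.13 for CDCA7L (log2, SE).

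**Figure D2:**
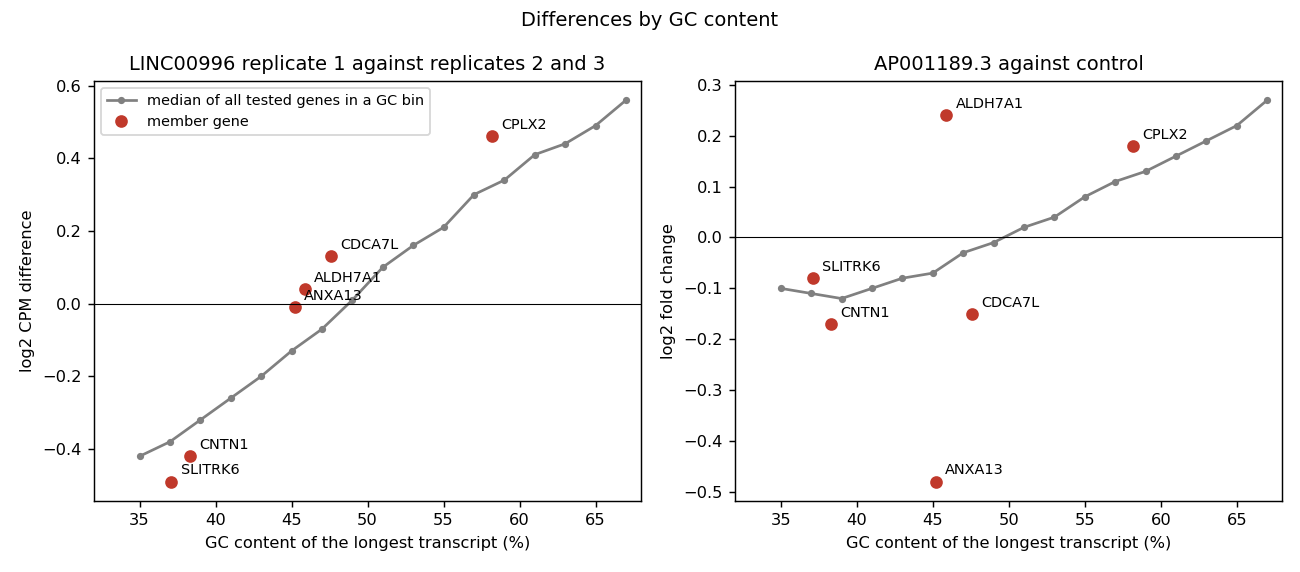
Differences by GC content of the longest transcript (x axis, %). The left panel shows log2 CPM of LINC00996 replicate 1 minus the mean of replicates 2 and 3, the right panel the log2 fold change of AP001189.3 against control. Red points are the 6 genes and the grey line is the median of all tested genes in bins of 2 GC points. CNTN1, SLITRK6 and CPLX2 lie near the grey line in both panels, while ANXA13 (-0.48) and ALDH7A1 (0.24) lie away from it on the right.

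Whether the 6 genes also differed between AP001189.3 and control was tested on 6 libraries with edgeR's quasi-likelihood test. The rule that chose the genes used these same libraries, so the calls are not independent of the choice. Of the 6 genes, 4 were called at a Benjamini-Hochberg adjusted p under 0.05, against 19.8% of the 16023 genes tested (11.4% higher and 8.49% lower). CPLX2 and ALDH7A1 were higher with AP001189.3 and CNTN1 and ANXA13 were lower, so the genes did not move one way. These same 4 did not overlap between the groups. Over all genes, 18.5% had all AP001189.3 libraries above control and 16.7% had all of them below.

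ANXA13 fell by 0.48 ± 0.11 on the log2 scale (SE, edgeR adjusted p = 0.00326), or 1.40-fold in the means of 16.3 ± 1.36 and 11.6 ± 0.302 CPM (SD, n = 3). It was called in 13 of 13 alternative settings, with adjusted p between 0.00146 and 0.0341 by edgeR or DESeq2. ALDH7A1 rose by 0.24 ± 0.07 (edgeR adjusted p = 0.0204), from 37.2 ± 1.30 to 44.0 ± 1.85 CPM, and was called in 9 of 13 settings. Its adjusted p ranged from 0.00989 to 0.129. With the GC offset, both kept their calls, ANXA13 at -0.45 (edgeR adjusted p = 0.00589) and ALDH7A1 at 0.27 (edgeR adjusted p = 0.00989), against 15.3% of all genes called in that fit.

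The smaller differences of CNTN1 and CPLX2 were called in 8 and 10 of 13 settings, but not with the GC offset. CNTN1 fell by 0.17 ± 0.05 (log2, edgeR adjusted p = 0.0170) and CPLX2 rose by 0.18 ± 0.05 (edgeR adjusted p = 0.00670). The median of genes within 2 GC points moved by -0.12 around CNTN1 and by 0.12 around CPLX2 in the same comparison. With the GC offset the values were -0.07 for CNTN1 (edgeR adjusted p = 0.329) and 0.04 for CPLX2 (edgeR adjusted p = 0.639), and neither was called. Over all 13 settings the adjusted p ranged from 0.00502 to 0.347 for CNTN1 and from 0.00314 to 0.639 for CPLX2. Whether GC content is the source of these differences was not tested.

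SLITRK6 and CDCA7L were not called. SLITRK6 differed by -0.08 ± 0.12 (log2, SE, edgeR adjusted p = 0.706) and CDCA7L by -0.15 ± 0.15 (edgeR adjusted p = 0.527). Neither was called in any of the 13 alternatives, and the sign of the SLITRK6 difference varied among them, from -0.15 to 0.05. These libraries held 222 to 296 counts of SLITRK6 and 107 to 146 of CDCA7L. The count of 4 genes fell to 1, ANXA13, without control replicate 2, and to 2, CPLX2 and ANXA13, without AP001189.3 replicate 1. It was also 1, ANXA13, when all 9 libraries shared 1 fit.

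**Figure D3:**
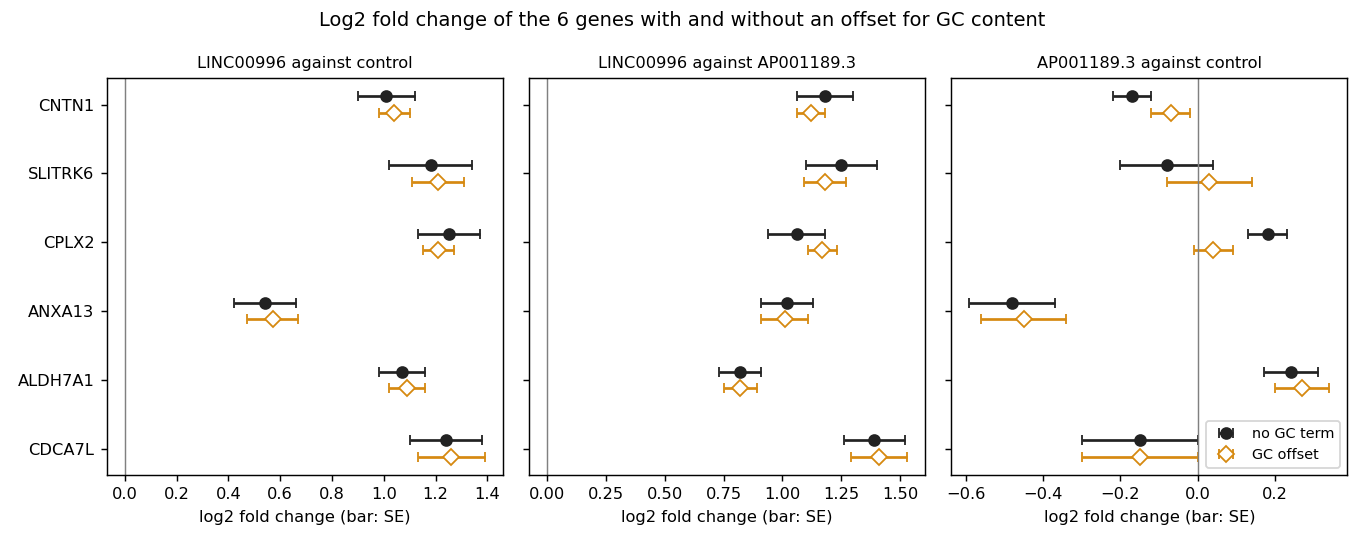
Log2 fold change of the 6 genes in the 3 comparisons, with SE bars, from edgeR without (black circles) and with (open diamonds) an offset for GC content. Each panel has its own x axis. All 6 genes lie right of 0 in both LINC00996 panels, which the choice of the genes fixes. In the AP001189.3 panel the offset moves CNTN1 from -0.17 to -0.07 and CPLX2 from 0.18 to 0.04, and leaves ANXA13 at -0.45 and ALDH7A1 at 0.27.

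Levels of different genes were compared per length, using the deposited FPKM. In the control libraries the order was CPLX2 at 50.6 ± 0.771 FPKM, CNTN1 at 45.5 ± 1.79, ANXA13 at 4.23 ± 0.358, SLITRK6 at 3.48 ± 0.527, ALDH7A1 at 2.05 ± 0.0711 and CDCA7L at 1.83 ± 0.182 (SD, n = 3). CPLX2 was above CNTN1 in every control library, and these were above 97.6% and 97.3% of the genes with any expression. ANXA13 and SLITRK6 overlapped, as did ALDH7A1 and CDCA7L. With LINC00996 the means were 120 ± 22.8 FPKM for CPLX2, 91.2 ± 15 for CNTN1, 7.87 ± 1.48 for SLITRK6, 6.15 ± 0.257 for ANXA13, 4.34 ± 0.265 for CDCA7L and 4.29 ± 0.0564 for ALDH7A1. SLITRK6 and ANXA13 again overlapped there, as did the last pair. With AP001189.3 the order was CPLX2 at 57.4 ± 0.700, CNTN1 at 40.3 ± 1.98, SLITRK6 at 3.29 ± 0.114, ANXA13 at 3.02 ± 0.0726, ALDH7A1 at 2.42 ± 0.0966 and CDCA7L at 1.65 ± 0.0935 FPKM, with no overlap between neighbours. The places of ALDH7A1 and ANXA13 depend on the length used. The table gives 17970 and 3806 bases, the sums of all their annotated exons, while their longest coding transcripts have 4964 and 1588. Per kilobase of the longest coding transcript, ANXA13, ALDH7A1 and SLITRK6 stood at 10.2, 7.49 and 3.64 CPM in control, 14.9, 15.7 and 8.24 with LINC00996 and 7.32, 8.85 and 3.44 with AP001189.3. On this scale SLITRK6 was below both in every group.

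Neighbouring and overlapping genes were examined next. DNAH11, a ciliary dynein heavy chain gene on the plus strand, overlaps the tail of CDCA7L by 940 bases, 833 of them exonic in both genes. Strand use in the counting is not given in the sources used here, so reads from the shared bases may have been assigned to either gene or to none. DNAH11 went the other way. It measured 6.13, 6.30 and 5.07 CPM in control and 3.18, 4.19 and 3.74 CPM with LINC00996, a fall of 0.66 ± 0.19 on the log2 scale (edgeR adjusted p = 0.0283) that was not called without LINC00996 replicate 3, control replicate 1 or control replicate 2. No coding gene overlapped the other 5. AC016144.1 and AC015540.1, inside introns of CNTN1, had at most 5 counts in a library. ALDH7A1P1, a pseudogene of ALDH7A1, had at most 4, and the other 3 ALDH7A1 pseudogenes had 0.

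Of the 12 nearest tested coding genes, 3 were called between LINC00996 and control, against 22.3% of all 16097 genes tested. FBXO32, a ubiquitin ligase subunit known from muscle wasting, lies 140 kb from ANXA13 and fell by 0.84 ± 0.12 (edgeR adjusted p = 4.74e-04), from 39.6 ± 3.33 to 22.1 ± 2.08 CPM. GRAMD2B, 34.7 kb from ALDH7A1, fell by 1.01 ± 0.21 (edgeR adjusted p = 0.00459). THOC3, a subunit of the THO complex of mRNA export, lies 33.9 kb from CPLX2 and rose by 0.70 ± 0.17 (edgeR adjusted p = 0.0126), a call lost without control replicate 2. PHAX, only 4.85 kb from ALDH7A1, measured 35.1 ± 0.681 CPM in control and 39.6 ± 0.151 with LINC00996 and was not called (log2 0.17 ± 0.10, edgeR adjusted p = 0.233). LRRK2 and GXYLT1 beside CNTN1, SPRY2 and SLITRK5 beside SLITRK6, HRH2 beside CPLX2, FAM91A1 beside ANXA13, and SP4 and RAPGEF5 beside CDCA7L were not called, with log2 differences between -0.24 and 0.20. Between AP001189.3 and control, LRRK2 fell by 0.30 ± 0.07 (edgeR adjusted p = 0.00372), and THOC3 and HRH2 rose by 0.36 ± 0.11 and 0.68 ± 0.23 (edgeR adjusted p = 0.0288 and 0.0405). The HRH2 call was lost in 9 of 13 alternatives, the THOC3 call in 4 and the LRRK2 call in 1.

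**Figure D4:**
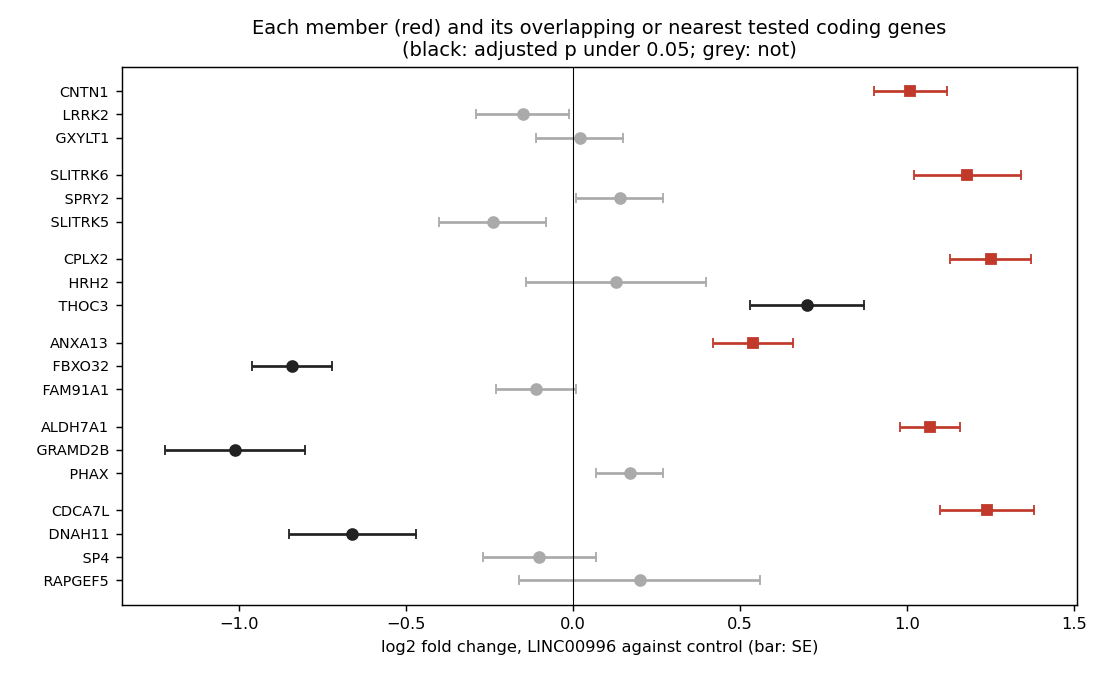
Log2 fold change of LINC00996 against control (x axis, SE bars) for each of the 6 genes (red squares) and its overlapping or nearest tested coding genes (circles, black where the edgeR adjusted p was under 0.05). FBXO32 at -0.84, GRAMD2B at -1.01 and DNAH11 at -0.66 lie on the opposite side of 0 from their neighbours ANXA13, ALDH7A1 and CDCA7L. THOC3 at 0.70 lies on the same side as CPLX2.

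Families and partners of the 6 genes were examined through 7 lists holding 112 other genes. Between LINC00996 and control, 84 were tested, 21 rose and 9 fell, which is 35.7% against 22.3% of all genes (10.7% higher and 11.6% lower). Without LINC00996 replicate 1 the count of 30 called was 41, and without LINC00996 replicate 2 or control replicate 1, 2 or 3 it was 18, 15, 15 and 19. Over all genes, 5481 were called without LINC00996 replicate 1 in place of 3588, against which all list counts without that library are to be read. In the other fits the calls over all genes were 2474, 2094, 1925 and 2162. Between AP001189.3 and control, 18 of 82 rose and 9 fell, or 32.9% against 19.8%. The calls in that comparison numbered 16 without AP001189.3 replicate 2 and 6 with all 9 libraries in 1 fit. Of the genes named below as called with AP001189.3, VAMP2, STX4, S100A10 and ALDH1A1 kept their calls in that joint fit, and CNTNAP1, FLRT3, PTPRF, SNAP25, ANXA11, ANXA10, ALDH3A1, CHGB, MAP2, TUBB3, MYC, CDCA2 and MAOA lost theirs. For NEFL this is not given here. With the GC offset, the share called among all genes was 37.4% between LINC00996 and control and 15.3% between AP001189.3 and control, against which the list counts with that offset are to be read. These comparisons share the control libraries. Between LINC00996 and AP001189.3, 19 of 82 were higher with LINC00996 and 8 lower, or 32.9% against 21.4%.

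None of the tested relatives of CNTN1 was called higher with LINC00996 than in control, and 1, CNTNAP3, was called higher than with AP001189.3 (log2 0.34 ± 0.09, edgeR adjusted p = 0.0219). CNTNAP3 has near-identical copies such as CNTNAP3B, so its counts are uncertain. Of 16 genes, 7 were tested against control, 0 rose and 2 fell by edgeR (0 rose also at an unadjusted p under 0.05 and by DESeq2), and CNTN3, CNTN4 and CNTN5 had 0 counts throughout. The share called was 28.6% of the list against 22.3% of all genes, of which 10.7% were higher. L1CAM and NRCAM, immunoglobulin-domain adhesion molecules that bind contactins, fell by 0.58 ± 0.12 (edgeR adjusted p = 0.00406) and 0.35 ± 0.10 (edgeR adjusted p = 0.0297), from 50.5 ± 3.99 to 33.8 ± 3.74 CPM and from 357 ± 18 to 279 ± 35.5 CPM. The L1CAM call held in all 13 alternatives and the NRCAM call was lost in 5. CNTNAP1, the partner of CNTN1 at nodes, was not called with LINC00996 (0.07 ± 0.13) and rose by 0.37 ± 0.09 with AP001189.3 (edgeR adjusted p = 0.00352), or 0.24 with the GC offset (edgeR adjusted p = 0.0422). The median difference of the tested list from control was 0.07 with LINC00996, against 0.01 over all genes. The counts were also 0 and 2 without LINC00996 replicate 1 and with the GC offset.

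The SLITRK list held its receptors and other LRR adhesion proteins. SLITRK1, SLITRK2, SLITRK3 and SLITRK4 had at most 7 counts in a library, and SLITRK5 was the only other family member tested, at 10 ± 1.57 CPM in control and 8.48 ± 0.825 with LINC00996 (log2 -0.24 ± 0.16, edgeR adjusted p = 0.308). Of 9 tested genes, 1 rose and 1 fell with LINC00996, or 22.2% against 22.3% of all genes. The counts were also 1 and 1 without LINC00996 replicate 1, where 5481 genes in all were called in place of 3588. They were the same with the GC offset, where 37.4% of all genes were called. NTRK3, the receptor of neurotrophin-3, rose by 0.53 ± 0.09 (edgeR adjusted p = 0.00191) and held in all 13 alternatives. FLRT3 fell by 0.39 ± 0.12 (edgeR adjusted p = 0.0328) with LINC00996, lost in 5 alternatives, and by 0.35 ± 0.06 with AP001189.3 (edgeR adjusted p = 2.08e-04). PTPRF, a receptor phosphatase that SLITRK proteins bind, rose by 0.26 ± 0.05 with AP001189.3 (edgeR adjusted p = 3.72e-04), and was 0.10 with the GC offset and not called.

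CPLX2 was the only complexin present at a level that could be tested. CPLX1 had at most 13 counts and CPLX3 and CPLX4 had 0. Of 20 tested SNARE genes, 2 rose and 4 fell with LINC00996, while 5 rose and 3 fell with AP001189.3, or 30.0% and 40.0% called against 22.3% and 19.8% of all genes. Without LINC00996 replicate 1 the counts with LINC00996 were 4 and 6, and with the GC offset 4 and 5. VAMP2, a vesicle SNARE that complexins bind within the SNARE complex, rose from 18 ± 1.79 to 26.2 ± 0.718 CPM with LINC00996 (log2 0.54 ± 0.12, edgeR adjusted p = 0.00752) and to 29.3 ± 2.39 CPM with AP001189.3 (0.70 ± 0.10, edgeR adjusted p = 9.06e-06). NAPA, which recycles SNAREs, fell by 0.58 ± 0.11 with LINC00996 (edgeR adjusted p = 0.00343), and UNC13A, which primes vesicles, by 0.58 ± 0.15 (edgeR adjusted p = 0.0146), a call lost in 3 of 13 alternatives. The plasma membrane SNARE STX4 rose with AP001189.3 by 0.51 ± 0.08 (edgeR adjusted p = 1.92e-05). The neuronal SNARE SNAP25 and the calcium sensor SYT1 fell by 0.34 ± 0.10 and 0.39 ± 0.12 with LINC00996 (edgeR adjusted p = 0.0234 and 0.0347), calls lost in 4 and 5 of 13 alternatives.

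Markers of neurons and neuroendocrine cells are given beside these genes because neurons use CNTN1 and CPLX2 and neuroendocrine cells secrete through SNARE proteins. The 12 neuron markers summed to between 174 and 176 CPM in control, 142 and 154 with LINC00996 and 158 and 162 with AP001189.3. STMN2 and DCX had 0 counts, while RBFOX3 (NeuN) stood at 29.4 ± 3.08, 26.6 ± 4.74 and 25.9 ± 3.0 CPM in control, LINC00996 and AP001189.3, and was not called in either comparison with control. In all, 0 of 6 tested rose with LINC00996 by edgeR (0 also at an unadjusted p under 0.05 and by DESeq2) while 2 fell, or 33.3% called against 22.3% of all genes. With AP001189.3, where 66.7% were called against 19.8%, 2 of the 6 rose, MAP2 by 0.36 ± 0.11 and TUBB3 by 0.90 ± 0.26 (edgeR adjusted p = 0.0196 and 0.0142, calls lost in 4 and 5 of 13 alternatives). The 2 that fell were SNAP25 by 0.29 ± 0.07 and NEFL by 0.65 ± 0.18 (edgeR adjusted p = 0.00244 and 0.00972), the SNAP25 call being lost in 1 of 13 alternatives. The 8 neuroendocrine markers summed to between 18.4 and 23.5 CPM in control, 29.6 and 42.4 with LINC00996 and 27.5 and 37.8 with AP001189.3. Most of this was CHGB, a granule protein, at 17.6 ± 2.25 CPM in control, 30.0 ± 5.44 with LINC00996 and 26.0 ± 5.78 with AP001189.3 (log2 0.77 ± 0.15 and 0.56 ± 0.14, edgeR adjusted p = 0.00386 and 0.0111), while NEUROD1 had 0 counts. CHGA, another granin, measured 1.75 ± 0.861 CPM in control, 0.704 ± 0.471 with LINC00996 (log2 -1.30 ± 0.50, edgeR adjusted p = 0.0834) and 1.97 ± 0.406 with AP001189.3. It was not called against control, but was in 5 of 12 alternatives, among them the GC offset (edgeR adjusted p = 0.0172). It was called lower with LINC00996 than with AP001189.3 by edgeR (-1.48 ± 0.43, adjusted p = 0.0294), which was lost in 5 of 12 alternatives. The 6 leukocyte markers summed to at most 14.0 CPM in any library. Of the 7 markers of fibroblasts and endothelium, 3 were tested and 2 fell with LINC00996, or 66.7% called against 22.3% of all genes (11.6% lower). The part of any such cell state in the levels of the 6 genes was not tested.

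Among annexins and their S100 partners, 2 of 14 rose and 0 fell with LINC00996 by edgeR (1 fell at an unadjusted p under 0.05 and 0 by DESeq2), or 14.3% against 22.3% of all genes, and 5 rose and 1 fell without LINC00996 replicate 1 and 7 and 1 with the GC offset. S100A10, the partner of annexin A2, rose from 213 ± 11 to 387 ± 27.6 CPM (log2 0.86 ± 0.09, edgeR adjusted p = 5.92e-05) and held in all 13 alternatives. ANXA5 rose by 0.30 ± 0.08 (edgeR adjusted p = 0.0255), lost in 5 alternatives. With AP001189.3, 4 rose and 1 fell (35.7% against 19.8% of all genes), among them S100A10 by 0.47 ± 0.05 (edgeR adjusted p = 3.11e-07) and ANXA11 by 0.26 ± 0.05 (edgeR adjusted p = 0.00132). The list gene that fell with AP001189.3 was ANXA10, by 0.52 ± 0.17 (edgeR adjusted p = 0.0352), a call lost in 7 of 13 alternatives, the GC offset among them.

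Of the aldehyde dehydrogenases related to ALDH7A1, 8 of 16 rose and 1 fell with LINC00996, or 56.2% called against 22.3% of all genes. Their median difference was 0.39, against 0.01. Without LINC00996 replicate 1, 9 rose and 2 fell, and with the GC offset 10 and 1. ALDH3A1, which oxidizes aromatic and lipid-derived aldehydes, went from 526 ± 18.7 to 1674 ± 454 CPM (log2 1.67 ± 0.15, edgeR adjusted p = 1.85e-05). ALDH1A1, a retinaldehyde dehydrogenase abundant in A549, went from 2933 ± 51.9 to 5836 ± 217 CPM (0.99 ± 0.07, edgeR adjusted p = 3.79e-06). ALDH1A2, another retinaldehyde dehydrogenase, fell by 2.54 ± 0.27 (edgeR adjusted p = 5.97e-05), from 6.10 ± 0.437 to 1.04 ± 0.417 CPM. These LINC00996 calls held in all 13 alternatives. With AP001189.3, 5 of 15 rose and 2 fell, or 46.7% against 19.8%. ALDH3A1 rose by 0.49 ± 0.05 (edgeR adjusted p = 6.10e-08), a call lost with all 9 libraries in 1 fit, and ALDH1A1 by 0.32 ± 0.05 (edgeR adjusted p = 1.58e-05). The members that rose act on retinal, fatty aldehydes, proline and glutamate intermediates and other substrates, and ALDH7A1 is the one of lysine breakdown.

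Of the enzymes of lysine and choline breakdown, the pathways in which ALDH7A1 acts, 2 of 6 tested rose with LINC00996 and 0 fell by edgeR (0 also at an unadjusted p under 0.05 and by DESeq2), or 33.3% called against 22.3% of all genes, with 3 and 0 without LINC00996 replicate 1 and 4 and 0 with the GC offset. AADAT, which takes the product of the ALDH7A1 step onward, rose from 5.09 ± 0.542 to 7.68 ± 0.942 CPM (log2 0.59 ± 0.17, edgeR adjusted p = 0.0274), lost in 3 alternatives. DHTKD1, the next dehydrogenase, rose by 0.31 ± 0.10 (edgeR adjusted p = 0.0389), lost in 6. AASS, which opens the pathway, was near the floor at 0.689 ± 0.224 CPM in control and 0.651 ± 0.432 with LINC00996. With AP001189.3, 0 of 6 were called by edgeR (1 rose at an unadjusted p under 0.05 and 0 by DESeq2), and AADAT measured 5.33 ± 0.271 CPM.

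Among CDCA genes and CDCA7L partners, 6 of 12 rose and 1 fell with LINC00996, or 58.3% against 22.3% of all genes, and the counts were also 6 and 1 without LINC00996 replicate 1 and with the GC offset. CDCA3, a trigger of mitotic entry, went from 16.3 ± 0.801 to 31.1 ± 1.00 CPM (log2 0.93 ± 0.11, edgeR adjusted p = 1.50e-04). CDCA8 (borealin), a subunit of the chromosomal passenger complex, rose by 0.57 ± 0.12 (edgeR adjusted p = 0.00556) and CDCA5 (sororin), which guards sister chromatid cohesion, by 0.48 ± 0.11 (edgeR adjusted p = 0.00897). The CDCA3 and CDCA8 calls held in all 13 alternatives, and the CDCA5 call was lost in 2. The closest relative of CDCA7L, CDCA7, rose by 0.41 ± 0.11 (edgeR adjusted p = 0.0183), lost in 4 alternatives and named after its value was seen. MYC, which CDCA7L binds, was not called with LINC00996 (-0.14 ± 0.09, edgeR adjusted p = 0.277). With AP001189.3, MYC rose by 0.25 ± 0.06 (edgeR adjusted p = 0.00445) and CDCA2 fell by 0.24 ± 0.07 (edgeR adjusted p = 0.0254), calls lost in 3 and 5 of 13 alternatives. In all, 2 rose and 2 fell, or 33.3% called against 19.8% of all genes. With the GC offset 0 rose and 1, MAOA, fell, where 15.3% of all genes were called.

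**Figure D5:**
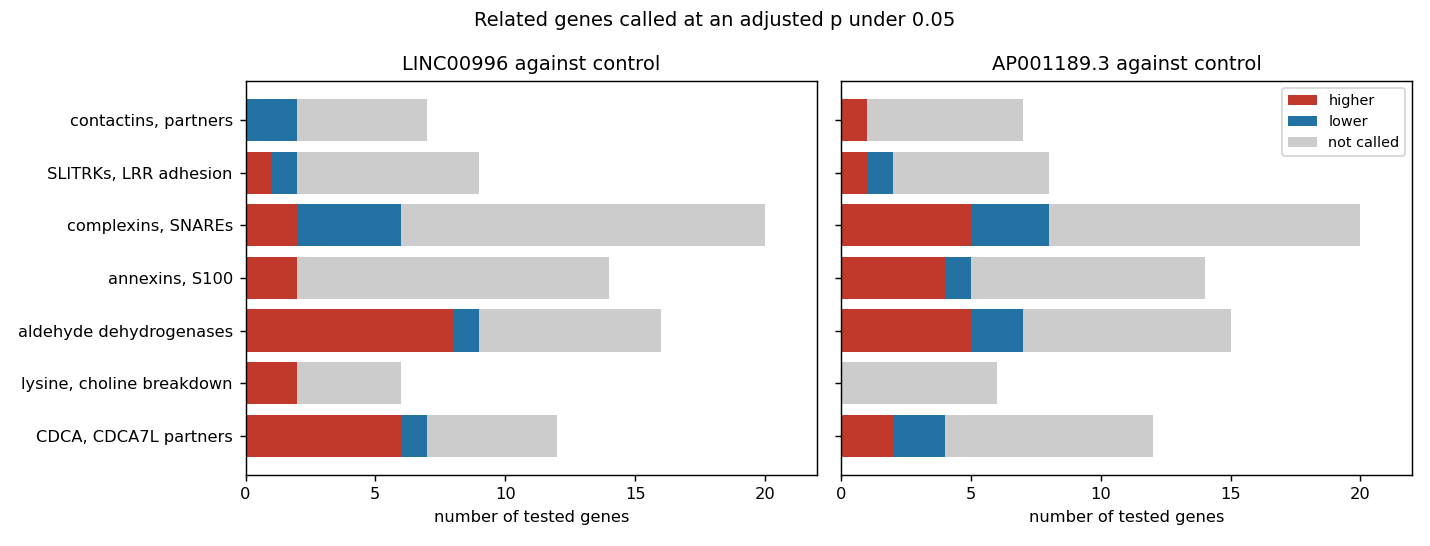
Number of tested genes of the 7 lists of relatives and partners (x axis) that were higher (red), lower (blue) or not called (grey) at an edgeR adjusted p under 0.05, for LINC00996 and for AP001189.3 against the same control libraries. With LINC00996, 8 of 16 aldehyde dehydrogenases and 6 of 12 genes of the CDCA list were higher, and 0 of 7 contactin relatives.

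The genes whose pattern was most like each of the 6 were taken by Pearson's r of log2 CPM over the 9 libraries. These points share the libraries and their GC content pattern, and the values are descriptive. For CNTN1, HP1BP3 was among them (r = 0.993), at 203, 223 and 227 CPM in the LINC00996 libraries. SLITRK6 was nearest to CCNB2 (cyclin B2) and MORC4, both at r = 0.990, and CPLX2 to QARS (r = 0.994) and CAD (r = 0.993). In QARS and CAD LINC00996 replicate 1 was the highest library, at 113 and 117 CPM, as for CPLX2, and in HP1BP3 it was the lowest of its group, as for CNTN1. ANXA13 had CC2D2A (r = 0.989) and ACACA (r = 0.977), the rate-setting enzyme of fatty acid synthesis, and ACACA measured 139 ± 8.87 CPM in control, 177 ± 5.0 with LINC00996 and 120 ± 2.83 with AP001189.3. ALDH7A1 had RPL21 (r = 0.992) and BIRC5 (r = 0.991), and CDCA7L had RPL5 (r = 0.993) and GALNT10 (r = 0.992). Ribosomal protein genes such as RPL21 and RPL5 have near-identical processed pseudogenes, so their counts are uncertain. Between 23 genes for ANXA13 and 189 for CPLX2, of 15635, had r above 0.95, so the names are picks from a crowd, and with Spearman's correlation 1 of the 12 was named again.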

How the data were processed

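Poly-T-selected RNA-seq libraries of A549 transfected with the control, LINC00996 or AP001189.3 plasmid (3 libraries per group) were analysed, grouped by their titles and treatment labels. The authors deposited raw counts per gene, FPKM values per library and gene lengths. According to the submitters' processing notes, HISAT2 2.0.5 and featureCounts 1.5.0-p3 were used with build GRCh38; DESeq2 1.20.0 and edgeR 3.22.5 are also named there. Strand use is not given in the sources used here. Library totals were 15272450 to 18125447. The deposited FPKM were used for levels between genes only.

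Each comparison was fitted on its 6 libraries and the whole count table with edgeR 4.0.16 (R 4.3.3, limma 3.58.1): filterByExpr, TMM, robust quasi-likelihood test, Benjamini-Hochberg adjusted p under 0.05. The SE given with edgeR values is the absolute log2 fold change over the square root of the F statistic of that test. CPM use TMM factors and log2 CPM a prior count of 2. The procedure was tested on simulated counts. Contrasts that chose the 6 genes were not tested for them. Alternatives were DESeq2 1.42.0, library size alone, no filter, a minimum of 10 counts per gene throughout, a joint fit of all 9 libraries, a replicate block and leaving out each library. A GC offset (loess, span 0.75) and levels per longest coding transcript were added after the data were seen. The 6 genes and the lists were chosen with earlier results of these data known. Named were the 6 genes, both lncRNAs, per list up to 3 called genes of smallest adjusted p with LINC00996 and 2 with AP001189.3, overlapping genes, nearest tested coding genes, pseudogenes and the 2 genes most like each by Pearson's r. Of the last, 1 gene is not reported here. Other genes named from the lists are family members, markers, or genes chosen after their values were seen (SNAP25, SYT1, CHGB, CHGA, CDCA7, MAOA, ANXA10, CNTNAP3 and the called A549 and neuron markers).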

Additional observations from a re-analysis of the deposited data

How the results depend on the processing

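With 3 libraries per group, leaving out 1 library ended some calls. CDCA7L had the fewest counts of the 6 genes. The direction between LINC00996 and either group follows from how the 6 genes were chosen and is no sign of stability, and the median of their log2 differences was between 1.09 and 1.11 from control and between 1.11 and 1.17 from AP001189.3 when libraries were left out in turn. With the GC offset, 6014 genes were called between LINC00996 and control in place of 3588 and 5966 between LINC00996 and AP001189.3 in place of 3452, 41 of the related genes were called in that comparison in place of 27, and 2 of the 6 genes in place of 4 between AP001189.3 and control. With all 9 libraries in 1 fit, 437 genes were called between AP001189.3 and control in place of 3180, 6 related genes in place of 27 and 1 of the 6 genes. Per longest coding transcript, the level of CPLX2 over that of ALDH7A1 in control was 9.64 in place of 24.7. Leaving out 1 library at a time gave 1925 to 5481 called genes between LINC00996 and control, highest without LINC00996 replicate 1, lowest without control replicate 2, and 2094 and 2162 without control replicates 1 and 3. It gave 1914 to 3598 between AP001189.3 and control, lowest without AP001189.3 replicate 2 and 1974 without control replicate 2, and 1840 to 6828 between LINC00996 and AP001189.3, highest without LINC00996 replicate 1, and 1840, 1957 and 1933 without AP001189.3 replicate 1, 2 and 3 and 2125 without LINC00996 replicate 2. Of related genes, 15 to 41, 16 to 26 and 17 to 42 were called in these comparisons, 42 without LINC00996 replicate 1 and 17 without AP001189.3 replicate 3. Of the 6 genes, 1 to 4 were called between AP001189.3 and control. The cause was not tested.

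The deviations of same-numbered libraries correlated between -0.02 and 0.18. Libraries of different number were not compared in this way, so whether the replicate numbers pair the libraries was not tested. The Spearman rho with GC content was highest in replicate 1 of each group (0.00 in control, 0.44 with LINC00996 and 0.37 with AP001189.3). With the replicate block, 4500 genes were called between LINC00996 and control in place of 3588, and 3466 between AP001189.3 and control in place of 3180. Between LINC00996 and AP001189.3 the count was 3772 in place of 3452. Of the related genes, 33, 29 and 27 were called in these comparisons, and 4 of the 6 genes between AP001189.3 and control.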
